A study of Bos taurus with 18 samples.

Results

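The genes described here are 3 estrogen receptors and 3 genes known as estrogen-responsive in human cells: ESR1, ESR2, GPER1, GREB1, PDZK1 and RBBP8. They were taken as the rows of the count table that carry these symbols. All 6 were found, 1 row each, among 38001 genes in the table, and all 6 were among the 19638 genes that passed the filter on low counts. Their identifiers are ENSBTAG00000007159 (ESR1), ENSBTAG00000004498 (ESR2), ENSBTAG00000060277 (GPER1), ENSBTAG00000015402 (GREB1), ENSBTAG00000005810 (PDZK1) and ENSBTAG00000006743 (RBBP8).

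Estrogen acts on the uterus through nuclear receptors that bind DNA, encoded by ESR1 (receptor alpha) and ESR2 (receptor beta), and through a membrane receptor coupled to G proteins, encoded by GPER1. Around estrus, ovarian estradiol drives growth of the endometrium and raises the receptors for estrogen and progesterone. As the corpus luteum forms, progesterone takes over and lowers estrogen action in the lining. GREB1 is an estrogen-induced gene whose protein binds the alpha receptor in human breast cancer cells. PDZK1 encodes a scaffold that holds transporters and receptors at the apical membrane, and RBBP8 encodes CtIP, which starts the trimming of broken DNA ends.

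Endometrial cells of 6 Holstein cows were sequenced as 18 poly(A) RNA libraries. Animals A, B and C formed the 17-OHPC/P4 arm, whose depot, given on day 4 of the treated cycle, held 17-hydroxyprogesterone caproate (100 mg) and progesterone (10 mg). Animals D, E and F formed the P4 arm, in which 100 mg of progesterone was given on day 4. Each cow gave 3 libraries, 1 from day 7 of the treated cycle, 1 from day 7 of an earlier untreated (control) cycle and 1 from day 4 of that control cycle. Estrus was synchronized with Ovsynch in both cycles, and day 0 was the day of estrus. The treated cycle always came second, so treatment and cycle order cannot be told apart. The labels give no genotype or age of the cows.

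The brush samples expressed the markers of the lining. The summed level of 8 epithelial markers lay between 2356 and 4467 CPM (counts scaled by library size) in the 18 libraries, whereas that of 8 stromal markers ranged from 70.6 to 5801 CPM. The sum of 3 red blood cell markers was 358.7 to 4170 CPM in the libraries of animal C and at most 4.15 CPM in all others. Total counts ranged from 29347255 to 40733544 per library. In such bulk samples fewer cells of a type and less RNA per cell cannot be told apart.

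**Figure D1:**
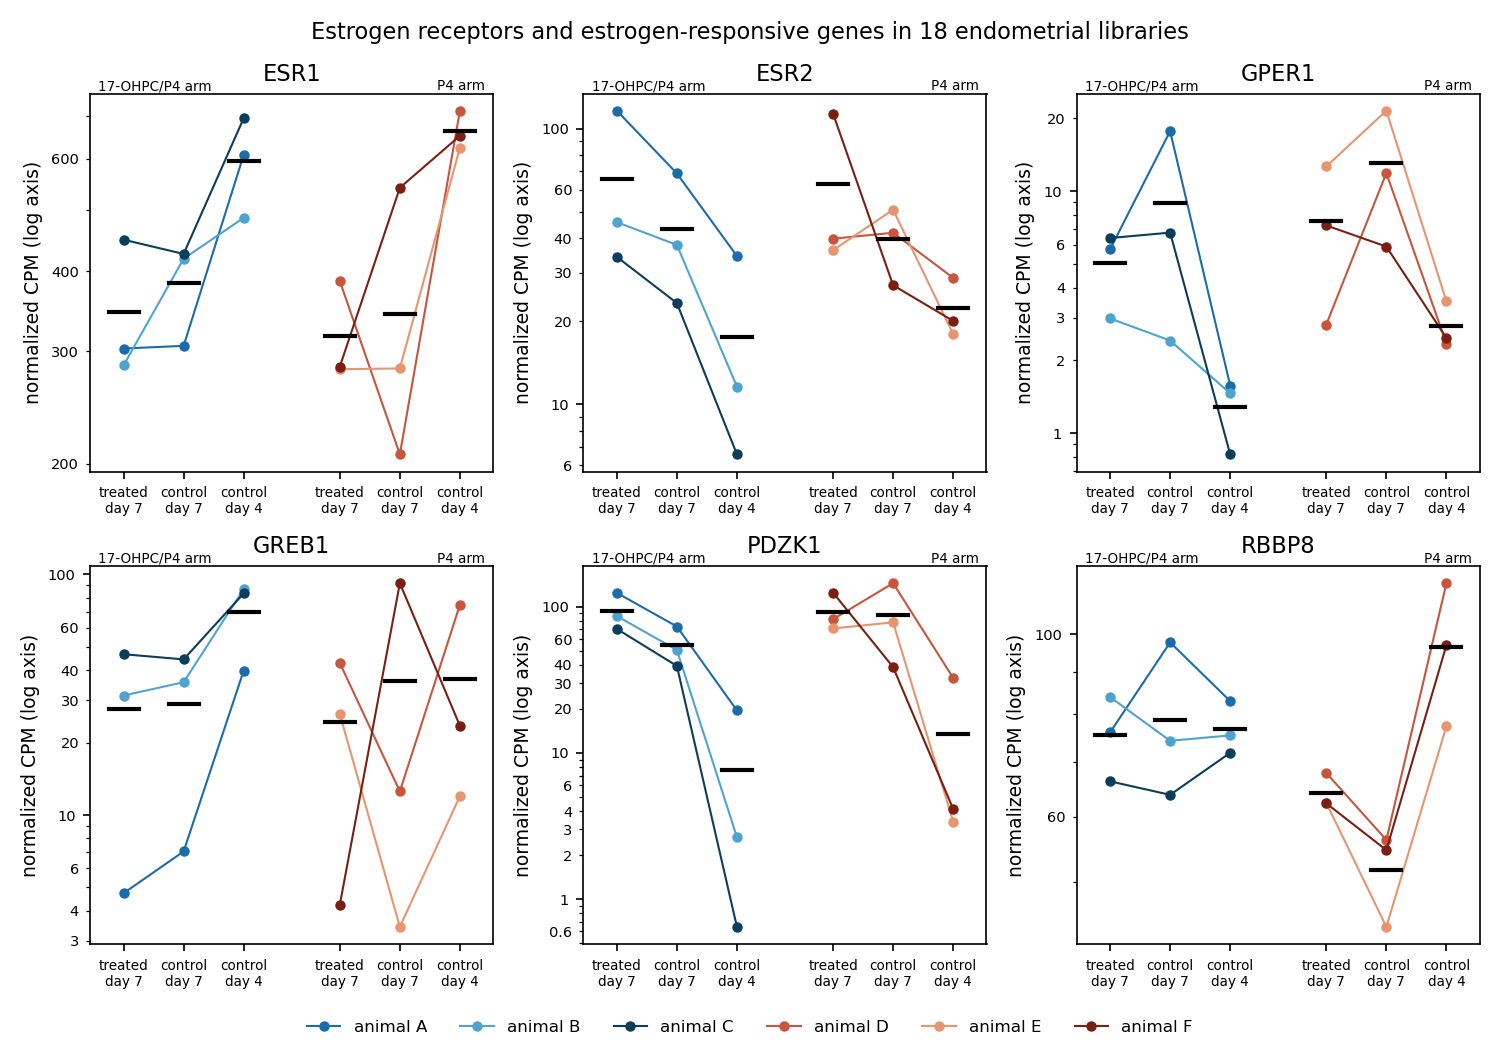
Level of each gene in normalized CPM (log axis) by group, with the 17-OHPC/P4 arm left and the P4 arm right in each panel. Points are libraries, lines join the 3 libraries of a cow, and black bars are the means of 3 cows. PDZK1 is lowest in the 6 control day 4 libraries (0.645 to 32.6 CPM). In the P4 arm the RBBP8 values of the 3 groups do not overlap, but treated against control day 7 did not pass the test.

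In the untreated cycle, with day 7 set against day 4 over both arms, ESR1 and RBBP8 fell, GPER1 and PDZK1 rose, and ESR2 and GREB1 did not pass the test. That is 4 of 6 genes, 2 in each direction, at an adjusted p under 0.05, where 10.6% of all genes tested passed (6.27% higher and 4.28% lower). The 6 genes were chosen with earlier results of these data known, so this count is no test of them against all genes. The tests are edgeR's quasi-likelihood F tests with Benjamini-Hochberg adjustment across every tested gene. Each log2 fold change stands with its standard error (SE). Levels are compared between samples of 1 gene, not between genes.

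ESR1 was at 306, 418.8 and 426 CPM at day 7 in animals A, B and C, against 609, 485 and 695 CPM at day 4. In animals D, E and F it was at 207, 282 and 541 CPM at day 7, against 714, 625 and 652 CPM at day 4. It was lower at day 7 in 6 of 6 cows, and the groups overlapped through the day 7 library of animal F alone, which lay above the day 4 library of animal B. The log2 fold change was -0.79 ± 0.22 (adjusted p = 0.032, edgeR), with a 95% interval from -1.26 to -0.33. The call ended when any 1 of 7 control libraries was left out (adjusted p = 0.062 to 0.0936, edgeR): the day 7 libraries of animals A, D and E and the day 4 libraries of animals C, D, E and F. It also ended when only the groups compared were fitted (adjusted p = 0.0611, edgeR). With the cow as a block (a fit that gives each cow its own level) the log2 fold change was -0.82 ± 0.22 and passed (adjusted p = 0.0264, edgeR).

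ESR2 was at 68.8, 37.9 and 23.3 CPM at day 7 in animals A, B and C, against 34.5, 11.6 and 6.58 CPM at day 4. In animals D, E and F it was at 41.9, 50.8 and 27.0 CPM at day 7, against 28.7, 18.0 and 20.1 CPM at day 4. Every cow had the higher value at day 7, but the cows differed so much in level that the groups overlapped. The log2 fold change of 1.07 ± 0.45 did not pass (adjusted p = 0.139, edgeR). With the cow as a block, which removes the difference in level between cows, it was 1.19 ± 0.29 and passed (adjusted p = 0.0197, edgeR). It also passed once the day 4 library of animal A was left out (1.55, adjusted p = 0.0327, edgeR).

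Since ESR1 was lower and ESR2 higher at day 7 in each cow, the log2 ratio of ESR2 to ESR1 counts was nearer 0 at day 7. In the 17-OHPC/P4 arm the ratio averaged -3.27 ± 1.03 at day 7 and -5.42 ± 1.29 at day 4 (SD, n = 3 cows). In the P4 arm it averaged -3.03 ± 1.12 at day 7 and -4.93 ± 0.26 at day 4 (SD, n = 3 cows). Within a cow the ratio removes library size, but the lengths of the transcripts are left in it, so that only its change between samples can be read. This ratio was not tested.

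GPER1 had the largest log2 fold change of the 3 receptors in the control cycle, and a low level on day 4. It was at 17.7, 2.42 and 6.75 CPM at day 7 in animals A, B and C, against 1.58, 1.46 and 0.819 CPM at day 4. In animals D, E and F it was at 11.9, 21.5 and 5.91 CPM at day 7, against 2.35, 3.51 and 2.48 CPM at day 4. All 6 cows were higher at day 7, and the groups overlapped through the day 7 library of animal B. The log2 fold change was 2.52 ± 0.50 (adjusted p = 0.00739, edgeR), a 5.72-fold higher level, with a 95% interval from 1.45 to 3.58. The call held when any 1 of the 18 libraries was left out.

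PDZK1 was at 73.2, 50.6 and 39.4 CPM at day 7 in animals A, B and C, against 19.5, 2.65 and 0.645 CPM at day 4. In animals D, E and F it was at 144.9, 78.2 and 38.6 CPM at day 7, against 32.6, 3.38 and 4.13 CPM at day 4. The day 7 and day 4 libraries did not overlap. The log2 fold change was 2.77 ± 0.72 (adjusted p = 0.0255, edgeR), 6.83-fold higher at day 7, with a 95% interval from 1.23 to 4.32. The cows differed in size: the day 7 level was 61.0 times the day 4 level in animal C and 3.75 times in animal A. Leaving out the day 7 library of A or D, or the day 4 library of B, E or F, ended the call (adjusted p = 0.0533 to 0.0667, edgeR). The call also ended without all 3 libraries of animal F (adjusted p = 0.0574, edgeR) and with only the groups compared (adjusted p = 0.06005, edgeR). With the cow as a block the log2 fold change was 3.40 ± 0.61 and passed (adjusted p = 0.00526, edgeR).

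GREB1 had the largest SE of the 6 genes, and animal F went against the other 5 cows. It was at 7.06, 35.7 and 44.4 CPM at day 7 in animals A, B and C, against 39.9, 86.9 and 83.4 CPM at day 4. In animals D, E and F it was at 12.5, 3.43 and 92.0 CPM at day 7, against 74.8, 11.99 and 23.5 CPM at day 4. It was lower at day 7 in 5 of 6 cows and 3.92 times higher in animal F. The log2 fold change was -0.65 ± 0.79 (adjusted p = 0.652, edgeR), with a 95% interval from -2.34 to 1.03.

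RBBP8 had the smallest SE of the 6 genes, and its values separated by day in the P4 arm alone. There it was at 56.2, 44.1 and 54.7 CPM at day 7 in animals D, E and F, against 115.3, 77.3 and 96.95 CPM at day 4, with no overlap. Animals A, B and C had 97.7, 74.2 and 63.8 CPM at day 7, against 82.9, 75.3 and 71.7 CPM at day 4, with overlap. It fell by 0.90 on the log2 scale in the P4 arm (SE 0.18, adjusted p = 0.0115, edgeR), where 8.65% of all genes passed. In the 17-OHPC/P4 arm, where 0.0407% of all genes passed, the log2 fold change was 0.04 ± 0.18 (adjusted p = 0.974, edgeR).

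The difference between those changes of RBBP8 was 0.94 ± 0.25 on the log2 scale (17-OHPC/P4 arm minus P4 arm), with a 95% interval from 0.39 to 1.48. It did not pass (adjusted p = 0.48, edgeR, and 0.198 with the cow as a block), in a comparison where 0% of all genes passed. These control samples came before any treatment. With both arms together RBBP8 fell by 0.43 on the log2 scale (SE 0.13, adjusted p = 0.0424, edgeR). That call rested on the 0.05 threshold: it ended when any 1 of 14 of the 18 libraries was left out (adjusted p = 0.0505 to 0.116, edgeR). The 4 libraries that could be left out with the call kept were the day 7 libraries of animal A and animal F of the control cycle, the day 4 library of animal E and the treated library of animal C. With all libraries kept, it also ended with RLE size factors (adjusted p = 0.0614), with no filter on low counts (0.119), with library sizes without mitochondrial and unnamed genes (0.0605) and with only the groups compared (0.117, edgeR in each). Without all 3 libraries of animal F it ended too (adjusted p = 0.0884, edgeR). With the cow as a block the log2 fold change of both arms was -0.44 ± 0.10 and passed (adjusted p = 0.0141, edgeR), where 16.7% of all genes did. The call in the P4 arm held when any 1 library was left out and ended without all 3 libraries of animal F (adjusted p = 0.0565, edgeR).

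The other 5 genes did not pass within either arm in edgeR's test. For the 17-OHPC/P4 arm the log2 fold change, day 7 over day 4, was -0.64 for ESR1, 1.30 for ESR2, 2.80 for GPER1, -1.27 for GREB1 and 2.84 for PDZK1. GPER1 had the lowest adjusted p of these there, 0.165 (edgeR). For the P4 arm it was -0.95 for ESR1, 0.84 for ESR2, 2.24 for GPER1, -0.03 for GREB1 and 2.71 for PDZK1. With the cow as a block ESR1, GPER1 and PDZK1 joined RBBP8 in the P4 arm (adjusted p = 0.0493, 0.0317 and 0.0307, edgeR), 4 of 6 genes in place of 1, where the share of all genes that passed was 15.1% with the block. No gene of the 6 passed with the block in the 17-OHPC/P4 arm, where 0.55% of all genes did. DESeq2 called GPER1 in the 17-OHPC/P4 arm (adjusted p = 0.00488), and ESR1 (0.0201), GPER1 (0.00752) and PDZK1 (0.0231) beside RBBP8 in the P4 arm. The share of all genes that DESeq2 called is not reported here.

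**Figure D2:**
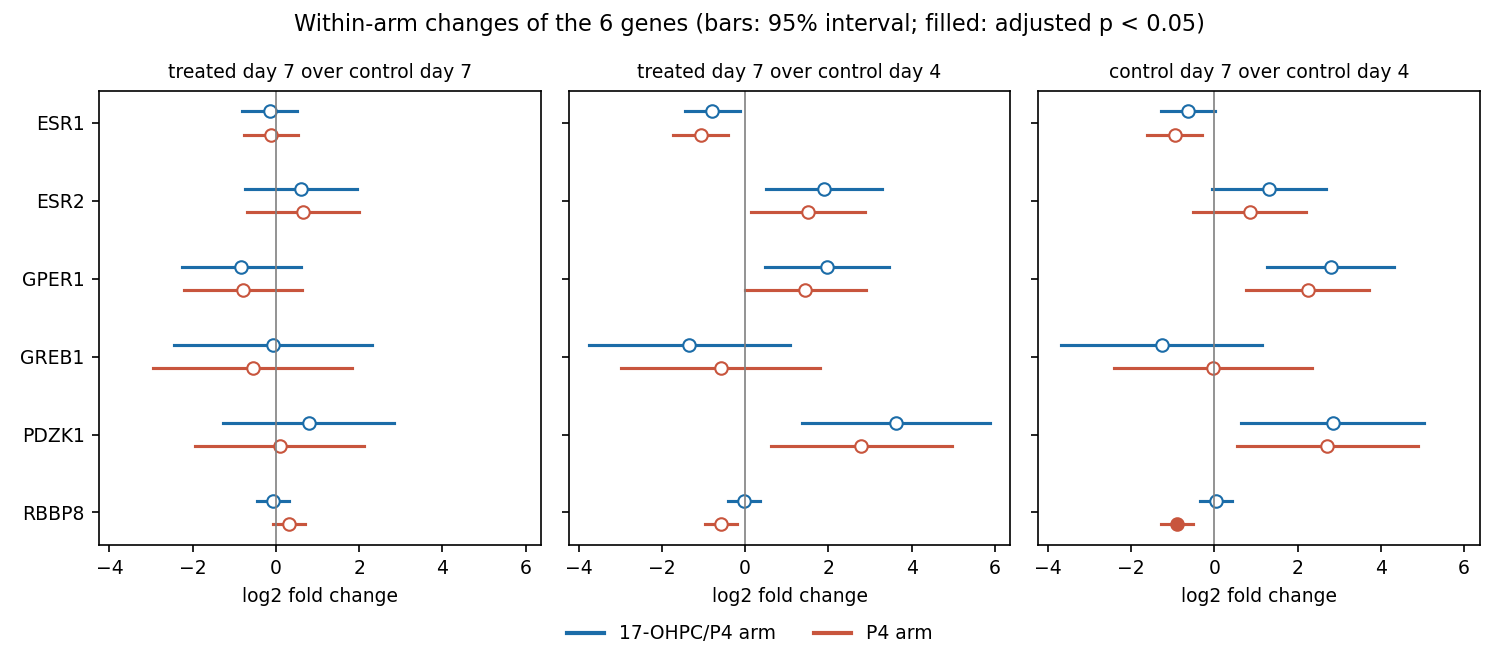
Log2 fold change (x axis) of the 6 genes in each arm, in 3 comparisons from left to right: treated day 7 over control day 7, treated day 7 over control day 4 and control day 7 over control day 4. Points are estimates, bars 95% intervals, and filled points have an adjusted p under 0.05: RBBP8 in the P4 arm, -0.90 in the control cycle, is the filled one, and the intervals of the treatment comparison all span 0.

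The treatment comparison asks how day 7 of the treated cycle differed from day 7 of the control cycle in the same cows. Its main test compares group means and does not pair the libraries of a cow. None of the 6 genes passed the test in either arm or in both together. At an adjusted p under 0.05, 0% of all genes passed, and no gene of the 6 had an unadjusted p under 0.05 (850 genes did with both arms together, 371 for the 17-OHPC/P4 arm alone and 596 for the P4 arm alone). DESeq2 likewise called none of the 6 in these comparisons. With the cow as a block none passed either, where 0% of all genes did.

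In the 17-OHPC/P4 arm ESR1 was at 303, 285 and 448.5 CPM on treated day 7 in animals A, B and C, against 306, 418.8 and 426 CPM on control day 7. Animals D, E and F had 386.5, 281 and 284 CPM on treated day 7, against 207, 282 and 541 CPM on control day 7. Animal D was higher and animal F lower on treated day 7, and the groups overlapped. With both arms together the log2 fold change was -0.13, with a 95% interval from -0.59 to 0.33.

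ESR2 was at 116, 45.8 and 34.3 CPM on treated day 7 in animals A, B and C, against 68.8, 37.9 and 23.3 CPM on control day 7, higher in each of the 3 cows. Animals D, E and F had 39.9, 36.2 and 113 CPM on treated day 7, against 41.9, 50.8 and 27.0 CPM on control day 7, higher in animal F alone. Log2 fold changes were 0.59 for the 17-OHPC/P4 arm (95% interval -0.75 to 1.94) and 0.66 for the P4 arm (-0.68 to 2.01). Without the treated library of animal F the value of the P4 arm was -0.07, and without the treated library of animal A that of the 17-OHPC/P4 arm was -0.11. With the cow as a block and all libraries kept, ESR2 had 0.52 ± 0.40 (17-OHPC/P4 arm) and 0.55 ± 0.42 (P4 arm).

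PDZK1 too was higher in each cow of the 17-OHPC/P4 arm. It was at 124, 86.4 and 70.5 CPM on treated day 7 in animals A, B and C, against 73.2, 50.6 and 39.4 CPM on control day 7, and the ratio within a cow was 1.70 in animal A, 1.71 in animal B and 1.79 in animal C. Animals D, E and F had 82.1, 71.0 and 125 CPM on treated day 7, against 144.9, 78.2 and 38.6 CPM on control day 7, with 1 of 3 cows higher. Log2 fold changes were 0.79 (95% interval -1.26 to 2.84) for the 17-OHPC/P4 arm and 0.09 (-1.95 to 2.13) for the P4 arm. With the cow as a block they were 0.80 ± 0.76 and 0.42 ± 0.79, and neither passed. Without the block, the difference between the arms in this response, 0.70 ± 1.35, did not pass (adjusted p = 1, edgeR).

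GPER1 was at 5.76, 2.98 and 6.41 CPM on treated day 7 in animals A, B and C, against 17.7, 2.42 and 6.75 CPM on control day 7. Animals D, E and F had 2.82, 12.7 and 7.22 CPM on treated day 7, against 11.9, 21.5 and 5.91 CPM on control day 7. It was lower in 4 of 6 cows, with a log2 fold change of -0.81 and a 95% interval from -1.82 to 0.20 over both arms. Without the control day 7 library of animal A the value of the 17-OHPC/P4 arm turned to 0.14.

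GREB1 was at 4.73, 31.4 and 46.6 CPM on treated day 7 in animals A, B and C, against 7.06, 35.7 and 44.4 CPM on control day 7. Animals D, E and F had 42.9, 26.3 and 4.23 CPM on treated day 7, against 12.5, 3.43 and 92.0 CPM on control day 7. Animals D and E were 3.42 and 7.67 times higher on treated day 7, whereas animal F was at 0.046 times its control day 7 level. The log2 fold change of the P4 arm, -0.56 ± 1.12, turned to 1.62 without the control day 7 library of animal F.

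RBBP8 in the P4 arm was at 67.8, 62.4 and 62.3 CPM on treated day 7 in animals D, E and F, against 56.2, 44.1 and 54.7 CPM on control day 7. The 3 treated values lay above the 3 control values, between those of control day 7 and control day 4. With 3 cows such a separation can arise by chance, and the share of all genes that separate so is not reported here. The log2 fold change was 0.31 ± 0.18 (adjusted p = 1, edgeR). In the 17-OHPC/P4 arm it was at 75.95, 83.8 and 66.2 CPM on treated day 7 in animals A, B and C, against 97.7, 74.2 and 63.8 CPM on control day 7, with a log2 fold change of -0.06 ± 0.18.

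Treated day 7 was also set against control day 4. These comparisons share the day 4 libraries with the control comparison above, so their values are given side by side with it and not as further evidence. No gene of the 6 passed in either arm, where 0.682% (17-OHPC/P4 arm) and 7.48% (P4 arm) of all genes passed. For the 17-OHPC/P4 arm the log2 fold change was -0.79 ± 0.31 for ESR1, 1.90 ± 0.65 for ESR2, 1.97 ± 0.69 for GPER1, -1.34 ± 1.13 for GREB1, 3.62 ± 1.06 for PDZK1 and -0.02 ± 0.18 for RBBP8. For the P4 arm it was -1.07 ± 0.31 for ESR1, 1.505 ± 0.64 for ESR2, 1.45 ± 0.68 for GPER1, -0.59 ± 1.12 for GREB1, 2.79 ± 1.02 for PDZK1 and -0.59 ± 0.18 for RBBP8. There ESR1 had an adjusted p of 0.05001, at the threshold, and RBBP8 one of 0.0595 (edgeR). PDZK1 in the 6 treated libraries, 70.5 to 125 CPM, lay above all 6 control day 4 libraries.

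With the cow as a block ESR2 (adjusted p = 0.0232, edgeR) and PDZK1 (adjusted p = 0.0227, edgeR) passed in the 17-OHPC/P4 arm, where 5.23% of all genes passed with the block. With it ESR1 (adjusted p = 0.042), ESR2 (0.0472), PDZK1 (0.0254) and RBBP8 (0.0236) passed in the P4 arm (edgeR), where 13.8% of all genes did. DESeq2 called ESR2 (adjusted p = 0.0371), GPER1 (0.0423) and PDZK1 (0.00387) in the 17-OHPC/P4 arm, and ESR1 (0.00781), PDZK1 (0.0216) and RBBP8 (0.0319) in the P4 arm. Here too the share of all genes that DESeq2 called is not reported. ESR1 was lower than on control day 4 in 6 of 6 treated libraries of the same cow, and ESR2, GPER1 and PDZK1 were higher in 6 of 6.

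The arms were also compared directly on treated day 7. The progestins and their doses both differ between the arms. No gene of the 6 passed, where 0.0102% of all genes passed. The log2 fold change, 17-OHPC/P4 over P4 arm, was 0.12 for ESR1 (95% interval -0.53 to 0.78), 0.05 for ESR2 (-1.29 to 1.39) and -0.58 for GPER1 (-2.01 to 0.84). It was 0.17 for GREB1 (-2.21 to 2.55), 0.02 for PDZK1 (-2.02 to 2.05) and 0.23 for RBBP8 (-0.15 to 0.62). The intervals of GREB1 and PDZK1 were the widest.

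The arms were also compared in the control cycle, before any treatment. On control day 7, where 0.00509% of all genes passed, RBBP8 was higher in the 17-OHPC/P4 arm by 0.60 ± 0.18 on the log2 scale, which did not pass (adjusted p = 0.239, edgeR). The other log2 values, 17-OHPC/P4 over P4 arm, were 0.16 for ESR1, 0.12 for ESR2, -0.55 for GPER1, -0.31 for GREB1 and -0.68 for PDZK1, and none passed. On control day 4, where 2.76% of all genes passed, no gene of the 6 passed, with values of -0.15 for ESR1, -0.34 for ESR2, -1.11 for GPER1, 0.93 for GREB1, -0.81 for PDZK1 and -0.33 for RBBP8. The treatment responses differed between the arms by -0.04 for ESR1, -0.07 for ESR2, -0.04 for GPER1, 0.48 for GREB1, 0.70 for PDZK1 and -0.37 for RBBP8 on the log2 scale, where 0% of all genes passed. The control cycle changes differed by 0.31 for ESR1, 0.46 for ESR2, 0.56 for GPER1, -1.24 for GREB1 and 0.13 for PDZK1, beside RBBP8 above, and none passed.

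The genes also varied together across libraries. Over the 18 libraries of 6 cows, which share cow, day and treatment, ESR2 and PDZK1 had a Pearson r of 0.877 on log2 CPM, and of 0.756 once the group means were removed. ESR1 and GREB1 had an r of 0.627, and of 0.645 with group means removed. ESR1 ran opposite to PDZK1 (r = -0.759) and GPER1 (r = -0.729), and ESR2 opposite to GREB1 (r = -0.718). Once the group means were removed, these were -0.302 for ESR1 with PDZK1, -0.506 for ESR1 with GPER1 and -0.684 for ESR2 with GREB1. These are descriptions with no test.

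Among 14619 genes with a symbol of their own, those most like each gene across the 18 libraries were as follows. For ESR1 they were GTF2I (r = 0.953), a transcription factor, PARP1 (0.945), a sensor of DNA breaks, GSTCD (0.941), SRBD1 (0.939) and ZNF512 (0.934). For ESR2 they were DENND1B (r = 0.959), MTUS1 (0.954), ANKRD33B (0.951), RPS6KA5 (0.946), a nuclear kinase, and EPN3 (0.943). For GPER1 they were MATK (r = 0.919), FSD1L (0.918), FAM135A (0.891), CGN1 (0.891) and MYL3 (0.888), a myosin light chain.

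For GREB1 the most similar genes were CREB3L4 (r = 0.909), KCNN3 (0.893), a potassium channel, FAM227A (0.884), FAM3D (0.879) and AOX1 (0.877). For PDZK1 they were FOXRED2 (r = 0.981), PRODH (0.976), a proline dehydrogenase, NXNL2 (0.975), PHGDH (0.973), the first enzyme of serine synthesis, and CRIPTO (0.968). For RBBP8 they were CABLES1 (r = 0.814), EPC2 (0.798), ETAA1 (0.772), which acts at stalled replication forks, C19H17orf100 (0.771) and UNC13C (0.761). The lowest r values were -0.942 with ATP6V0B and -0.937 with TRMU for ESR1, and -0.934 with ZC3H7A and -0.933 with CCDC82 for ESR2. They were -0.884 with GRAMD2A and -0.877 with FTO for GPER1, and -0.907 with STK11 and -0.893 with ARVCF for GREB1. They were -0.907 with AEN and -0.906 with UTP4 for PDZK1.

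Markers of ciliated cells moved with GREB1. Their summed level (7 of 8 markers had a row, none at 0 in all libraries of a group) had a Pearson r of 0.803 with GREB1 over the 18 libraries. These libraries share cow, day and treatment. With GPER1 and ESR2 the sum had an r of -0.631 and -0.605. The sum was 72.2 CPM on treated day 7, 457.6 CPM on control day 7 and 94.4 CPM on control day 4 in animal F, where GREB1 was at 4.23, 92.0 and 23.5 CPM. It was 329 CPM on treated day 7, 83.0 CPM on control day 7 and 128 CPM on control day 4 in animal D, where GREB1 was at 42.9, 12.5 and 74.8 CPM. In animal D the sum was thus highest on treated day 7, but GREB1 on control day 4. By group the sum ranged from 46.5 to 357 CPM on treated day 7, 136 to 489.8 CPM on control day 7 and 172.5 to 1061 CPM on control day 4 in the 17-OHPC/P4 arm. For the P4 arm it ranged from 72.2 to 329 CPM on treated day 7, 37.7 to 457.6 CPM on control day 7 and 94.4 to 139 CPM on control day 4. The part of these cells in the GREB1 values was not tested.

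ESR1 moved with a list of 10 proliferation genes (r = 0.792), whose sum was 99.5 to 330.8 CPM on control day 7 and 174 to 730 CPM on control day 4 in the 17-OHPC/P4 arm. Libraries of the P4 arm had 142 to 309 CPM on control day 7 and 588 to 1454 CPM on control day 4. The stromal sum had an r of 0.192 with ESR1, and the epithelial sum an r of 0.528. Of the other marker lists 1 of 4 squamous markers rose in the control cycle of both arms (KRT14, 2.57 ± 0.48, adjusted p = 0.0055, edgeR) and 1 of 7 leukocyte markers fell (CD3E, -0.80 ± 0.21, adjusted p = 0.0292, edgeR). Over all genes 6.27% rose and 4.28% fell there. The part of any of these marker lists in the values of the 6 genes was not tested.

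**Figure D3:**
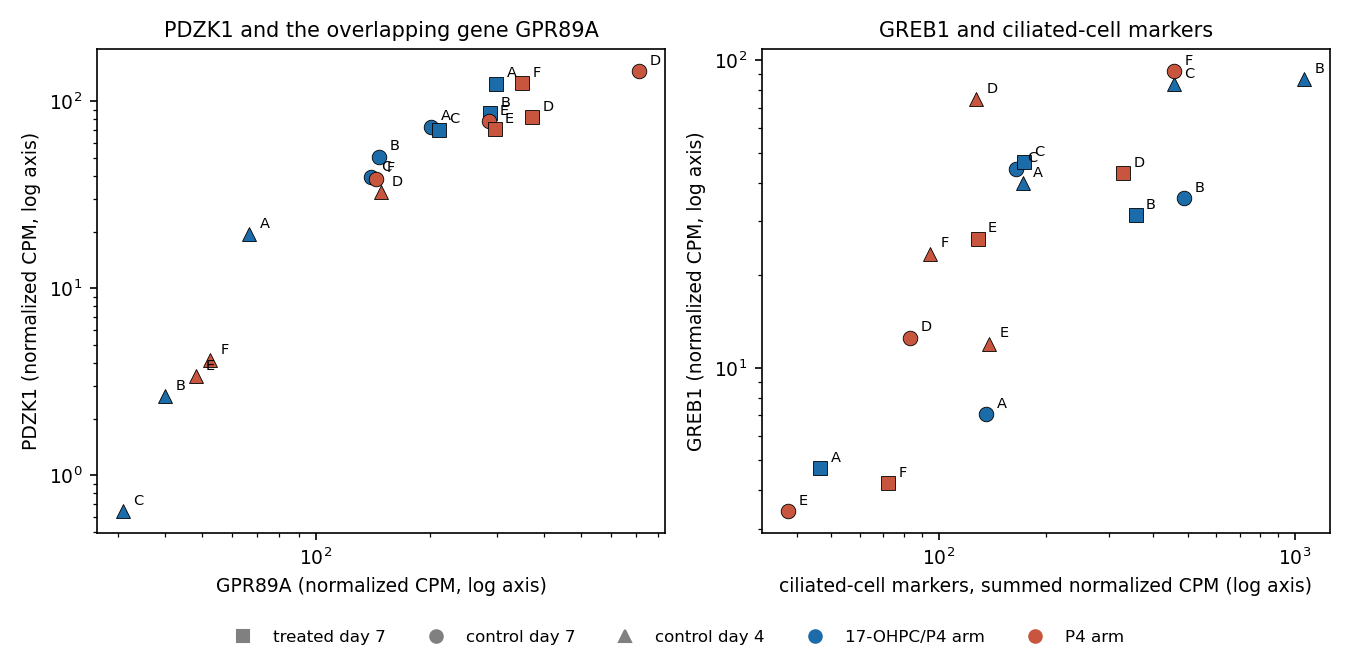
Left, PDZK1 against GPR89A, and right, GREB1 against the summed ciliated-cell markers, in normalized CPM on log axes, 1 point per library lettered by cow. PDZK1 follows GPR89A (r = 0.943) and GREB1 follows the ciliated sum (r = 0.803), with animal F on control day 7 high on both axes at right.

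Reads of overlapping genes may limit some of these levels. By the RefSeq annotation of ARS-UCD2.0, used only for which genes overlap, the span of PDZK1 overlaps that of GPR89A, which encodes an ion channel of the Golgi. ESR2 overlaps SYNE2, which links the nucleus to the cytoskeleton, and GPER1 overlaps C25H7orf50. These are overlaps of spans, and whether counting used strand is not given, so how far such pairs share reads is not known. GPR89A rose with PDZK1, by 2.01 ± 0.37 on the log2 scale in the control cycle of both arms (adjusted p = 0.00539, edgeR), and had an r of 0.943 with it. SYNE2 had an r of -0.102 with ESR2 and C25H7orf50 an r of 0.317 with GPER1. C25H7orf50 had a log2 fold change of 0.10 ± 0.15 where GPER1 rose. For SYNE2 it was -0.41 ± 0.16 over both arms (adjusted p = 0.116, edgeR). By arm SYNE2 had -1.10 ± 0.23 in the P4 arm (adjusted p = 0.0131, edgeR) and 0.28 ± 0.23 in the 17-OHPC/P4 arm (adjusted p = 0.766, edgeR). ESR1 and GREB1 had no overlapping gene in that annotation, and RBBP8 overlapped only microRNA genes.

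The wider estrogen pathway was read from lists, all in control day 7 over control day 4 with both arms unless stated. The lists too were chosen with earlier results of these data known, so their counts are no test against the share of all genes. Of 22 coregulators and pioneer factors of the estrogen receptors, such as the coactivators NCOA1 to NCOA3 and the pioneer factor FOXA1, 0 passed (median log2 fold change -0.03, against -0.05 over all genes). Of 3 estrogen-related receptors 2 were tested and 0 passed. Of 9 genes of estrogen synthesis and inactivation 5 were tested and 0 passed. Over all genes 10.6% passed in this comparison. On control day 4 the coregulators CREBBP (-0.57 ± 0.14, adjusted p = 0.0468, edgeR) and PELP1 (-0.72 ± 0.17, adjusted p = 0.0391, edgeR) were lower in the 17-OHPC/P4 than in the P4 arm. Between the arms on that day 2.76% of all genes passed. CYP19A1, the aromatase that makes estrogen, was at 0 CPM in all 6 treated libraries and at most 0.0623 CPM in any control library, and SULT1E1, which inactivates estrogen by adding sulfate, reached at most 0.716 CPM.

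Of 36 estrogen-responsive genes of human cells 35 were tested. ADCY9, an adenylyl cyclase, rose (2.37 ± 0.42, adjusted p = 0.00454, edgeR), and the list median was -0.11. Its level averaged 82.0 ± 38.5 CPM on control day 7 and 15.4 ± 6.59 CPM on control day 4 (SD, n = 6 cows). CTSD, a lysosomal protease, rose by 0.95 ± 0.28 (adjusted p = 0.0413, edgeR). IRS1, which passes on insulin signals, fell by 0.83 on the log2 scale (SE 0.22, adjusted p = 0.0253, edgeR). Thus 2 rose and 1 fell, where 10.6% of all genes passed. With the cow as a block 2 rose and 7 fell, where 16.7% of all genes passed.

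Where 10.6% of all genes passed, 1 of 12 estrogen-responsive genes of the uterus did, in the downward direction, and the list median was -0.05. It was PGR, the progesterone receptor and a classical estrogen-induced gene, with -1.05 ± 0.26 (adjusted p = 0.021, edgeR). PGR averaged 56.2 ± 23.9 CPM on treated day 7, 36.0 ± 14.6 CPM on control day 7 and 73.4 ± 31.7 CPM on control day 4 in the 17-OHPC/P4 arm (SD, n = 3 cows). For the P4 arm it averaged 38.6 ± 8.11 CPM on treated day 7, 40.4 ± 7.27 CPM on control day 7 and 84.4 ± 20.5 CPM on control day 4 (SD, n = 3 cows).

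Of 11 tested rows of GPER1 signalling CCN2 rose, a matrix-associated growth regulator induced through GPER1 in human cells. Its log2 fold change was 1.61 ± 0.48 (adjusted p = 0.0473, edgeR), and the list median was 0.11. Of 9 tested relatives and partners of PDZK1 2 rose and 0 fell. They were PDZK1IP1, a membrane protein that binds PDZK1 (1.39 ± 0.29, adjusted p = 0.00975, edgeR), and EZR, which ties membrane scaffolds to actin (0.70 ± 0.20, adjusted p = 0.0368, edgeR). The list median was 0.27. For both lists, the share of all genes that passed was 10.6% (6.27% higher and 4.28% lower).

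Of 14 partners of RBBP8 in DNA end resection and transcription 6 fell and 0 rose, with a list median of -0.37. Over all genes 4.28% fell and 6.27% rose. DNA2, a nuclease and helicase of resection, fell by 1.88 on the log2 scale (SE 0.40, adjusted p = 0.0104, edgeR). BARD1, a ubiquitin ligase subunit, fell by 1.45 (SE 0.36, adjusted p = 0.0198, edgeR), and RAD50, of the complex that binds broken ends, fell by 0.51 (SE 0.10, adjusted p = 0.00664, edgeR). ATM, the kinase that signals breaks, fell by 0.42 (SE 0.10, adjusted p = 0.0177, edgeR). In the P4 arm 5 fell, where 8.65% of all genes passed, and in the 17-OHPC/P4 arm 0 passed, where 0.0407% of all genes did. The difference between the arms in this change passed for 0 of the 14, where 0% of all genes passed. On control day 4 RAD50 was already lower in the 17-OHPC/P4 than in the P4 arm (-0.66 ± 0.14, adjusted p = 0.0331, edgeR). So was ATM (-0.68 ± 0.14, adjusted p = 0.0317, edgeR), whereas the other partners did not pass there. In that comparison 2.76% of all genes passed. Of the 10 proliferation genes 6 fell and 0 rose with both arms together, with a list median of -1.60, where 4.28% of all genes fell.

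**Figure D4:**
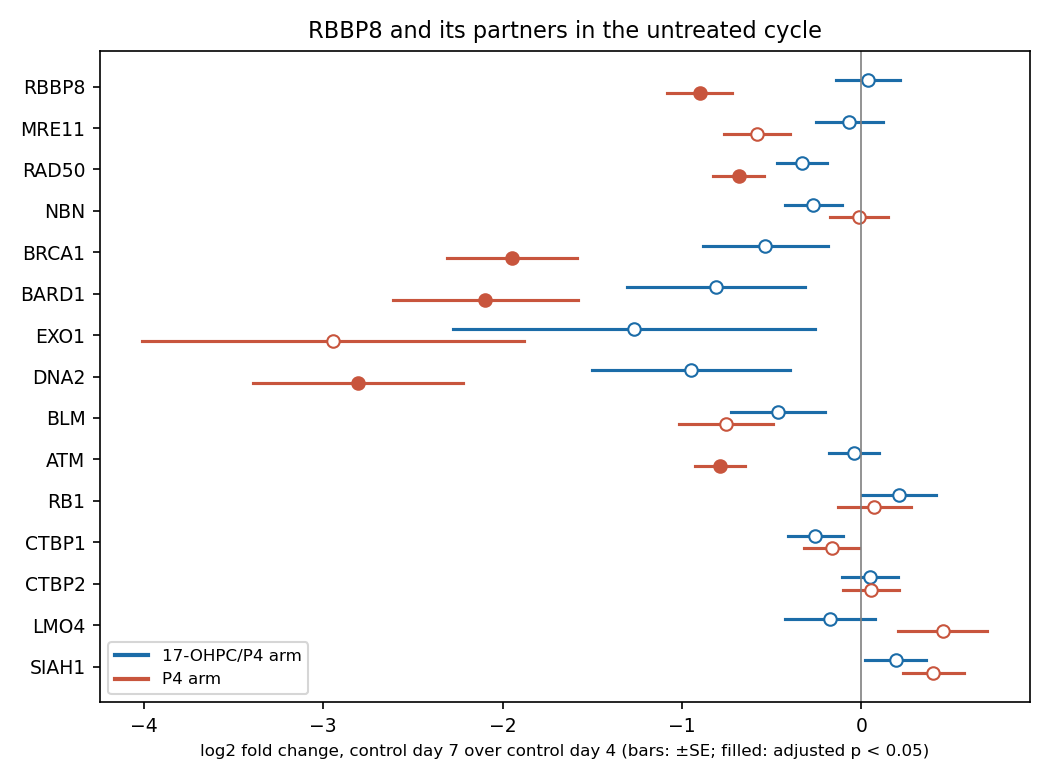
Log2 fold change of RBBP8 and its 14 partners in the control cycle, day 7 over day 4, by arm, with bars of 1 SE and filled points for an adjusted p under 0.05. In the P4 arm RBBP8 (-0.90), RAD50 (-0.69), BARD1 (-2.10), DNA2 (-2.81) and ATM (-0.79) are among the filled points, and no point of the 17-OHPC/P4 arm is filled.

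On treated day 7 against control day 7, 0 genes passed in each of these lists, in either arm and in both together. Their medians with both arms together ran from -0.27 (uterine genes) to 0.20 (coregulators) over the lists other than proliferation (-0.45), against -0.01 over all genes. On treated day 7 against control day 4, PDZK1IP1 rose in each arm, by 2.29 ± 0.42 for 17-OHPC/P4 (adjusted p = 0.0307, edgeR) and by 1.56 ± 0.41 for P4 (adjusted p = 0.0367, edgeR). There too, in the P4 arm, ADCY9 (3.03 ± 0.61), CCN2 (2.46 ± 0.71) and BCL2 (1.58 ± 0.41), which blocks cell death, rose. In those cows MYBL1 (-1.98 ± 0.56), SCARB1 (-1.85 ± 0.48), the receptor for high-density lipoprotein whose level PDZK1 maintains in mouse liver, and IRS1 (-1.45 ± 0.31) fell. Of RBBP8 partners EXO1 (-4.33 ± 1.14), DNA2 (-2.84 ± 0.585), BARD1 (-2.81 ± 0.53) and BRCA1 (-1.96 ± 0.36) fell most. Of proliferation genes MKI67 (-4.16 ± 1.07), TOP2A (-4.14 ± 1.105), BUB1 (-3.75 ± 0.98) and CCNA2 (-3.71 ± 0.88) fell most. Other genes of both lists also fell. In this comparison 7.48% of all genes passed in the P4 arm and 0.682% in the 17-OHPC/P4 arm.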

How the data were processed

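The deposited table holds counts per gene for 18 libraries, as the authors made them, not normalized. Reads were 2 x 150 bp pairs. Per the submitters' processing notes, cutadapt, FastQC, STAR, featureCounts and DESeq2 were used, without versions. For build, annotation, strand setting and pair counting the value is not given in the sources used here. Of counts from 1 to 20, 78.3% were even, so both reads of a pair may have been counted. The table held 0 columns of other samples.

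Counts were fitted with edgeR 4.0.16 (R 4.3.3; filterByExpr, TMM, robust quasi-likelihood, 6 group means, all 18 libraries). This script was tested on simulated data. The members and lists were chosen with earlier results of these data known. The 6 genes were named in every comparison, up to 4 called genes per list, and the 5 most and 2 least similar genes by r (the least similar genes of RBBP8 are not reported here).

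The letter marks 1 cow, so numbers pair the samples. Same-cow deviations correlated at 0.48 to 0.594 (A), 0.393 to 0.543 (B), 0.605 to 0.718 (C), 0.0828 to 0.314 (D), -0.0107 to 0.357 (E) and -0.0712 to 0.0327 (F). Biological variation (coefficient) was 51.4%, or 39.4% with the block of cows. Alternatives were other size factors, no filter, the block, only the groups compared, library sizes without mitochondrial and unnamed genes, DESeq2 1.42.0, and each library left out. Leaving out animal F was added after seeing the data.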

Additional observations from a re-analysis of the deposited data

Results flagged for a closer look

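PDZK1 in the control day 7 library of animal D, at 144.9 CPM, stood apart from the other 5 control day 7 libraries, which lay between 38.6 and 78.2 CPM. Its gap to the nearest library was 0.628 of the whole range of the 6 libraries, just above the critical value of Dixon's test at 95%. GPR89A, which overlaps PDZK1, was also at its highest in this library, at 712 CPM. The control libraries of each day were examined for each of the 6 genes, and chance flags about 1 in 20 such groups if values are normally distributed. Gaps were taken on CPM over both arms, not on the log2 scale, and the flag depends on that choice.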

How the results depend on the processing

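Counts of the 6 genes called moved with the processing, and so did the share of all genes. With the block it was 16.7% against 10.6% in the control cycle of both arms, and 15.1% against 8.65% in the P4 arm. For treated day 7 over control day 4 it was 5.23% against 0.682% (17-OHPC/P4 arm) and 13.8% against 7.48% (P4 arm). Under the other settings that share is not reported here, so the counts cannot be read as changes of the 6 genes alone. In the control cycle of both arms the count was 4, and 5 with the replicate block, 3 with RLE size factors, no filter or the other library sizes, 1 with only the groups compared, 2 without animal F and 1 to 4 when each library was left out. In the 17-OHPC/P4 arm it was 0, and 1 with DESeq2. In the P4 arm it was 1, and 4 with the replicate block or DESeq2, 2 with the other library sizes or only the groups compared, and 1 to 3 with a library left out. For treated day 7 over control day 4 it was 0 in the 17-OHPC/P4 arm, and 2 with the block, 3 with DESeq2 and 0 to 2 with a library left out. In the P4 arm it was 0, and 4 with the block, 3 with DESeq2, 1 with RLE size factors, the other library sizes or only the groups compared, and 0 to 1 with a library left out. In the other comparisons that could be fitted with the block, the pairing by cow changed no count. The cause was not tested.

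Some values below the threshold changed sign. With no filter GREB1 in the control cycle of the P4 arm was 0.012 (log2). RBBP8 on treated day 7 over control day 4 in the 17-OHPC/P4 arm was 0.0104 with RLE or DESeq2, 0.0243 with no filter and 0.0039 with the other library sizes. With the replicate block GREB1 in the treatment comparison of the P4 arm was 0.14. Without animal F the treatment comparison over both arms gave 0.15 for ESR1 and 1.02 for GREB1, and that of the P4 arm 0.45 for ESR1, -0.28 for ESR2, 2.12 for GREB1 and -0.54 for PDZK1. GREB1 between the arms on treated day 7 was then -0.33.

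With each library left out in turn, the control cycle gave -0.15 to 0.16 for RBBP8 in the 17-OHPC/P4 arm and -2.20 to 1.02 for GREB1 in the P4 arm. The treatment comparison over both arms gave -0.25 to 0.11 for ESR1 and -0.66 to 0.77 for GREB1. That of the 17-OHPC/P4 arm gave -0.11 to 1.10 for ESR2, -1.25 to 0.14 for GPER1, -0.68 to 0.43 for GREB1 and -0.19 to 0.13 for RBBP8. That of the P4 arm gave -0.34 to 0.38 for ESR1, -0.0696 to 0.94 for ESR2, -1.24 to 1.62 for GREB1 and -0.27 to 0.66 for PDZK1. Treated day 7 over control day 4 gave -0.11 to 0.0596 for RBBP8 in the 17-OHPC/P4 arm and -1.27 to 0.46 for GREB1 in the P4 arm. Between the arms on treated day 7 it gave -0.11 to 0.29 for ESR1, -0.66 to 0.78 for ESR2, -0.98 to 0.0156 for GPER1, -0.44 to 0.85 for GREB1 and -0.24 to 0.29 for PDZK1.

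Of 398 values for single genes under the alternatives that keep all or drop animal F, 350 kept direction and call, and of 1044 with 1 library left out, 968 did.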
